A study of Mus musculus with 6 samples.

Results

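The genes described here are those of the tumour necrosis factor (TNF) superfamily and of the NF-kB pathway, chosen by gene symbol: Tnf, the symbols that start with Tnfrsf, Tnfsf, Tnfaip, Nfkb or Traf and a digit, and Rel, Rela, Relb, Ikbkb, Ikbke, Chuk, Map3k14, Birc2, Birc3, Fas, Fasl, Cd40, Ltb, Lta, Cflar, Ripk1 and Ripk3. The symbols found were 77, of which 66 had a probe set annotated to that gene alone and were measured, among 18192 genes in all. The other 11 (Chuk, Nfkb1, Ripk1, Tnfaip8l3, Tnfrsf26, Tnfsf12, Tnfsf13, Tnfsf15, Tnfsf18, Tnfsfm13 and Traf3) were not analysed here. The EGFP-positive cells (3 arrays) were Lin- haematopoietic progenitors of the C57BL/6J background with the Rosa26rtTA allele, transduced with pRRL.TET.EVI1.IRES.EGFP, a doxycycline-inducible vector for the transcription factor EVI1 and the fluorescent protein EGFP. The EGFP-negative cells (3 arrays) were Lin- Rosa26rtTA cells of the same background that the labels call untransduced, while the series design sorts EGFP-negative or EGFP-low cells out of the transduced, doxycycline-treated culture. The description of all 6 samples carries the word untransduced, so the grouping here rests on their titles. The S3F11 medium of both groups held 20 ng/ml of interleukin-3 and 50 ng/ml each of interleukin-11, Flt3 ligand and stem cell factor, and doxycycline (1 µg/ml) preceded the sort by 20 hours. The labels do not say whether replicates came from separate cultures or mice, so p-values measure the spread between these arrays, which may be technical.

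TNF superfamily ligands are membrane-bound or shed proteins that bring their receptors together in clusters. The receptors recruit TRAF adaptors or death-domain proteins, and these switch on the kinases of the IKK complex or the caspases. IKK marks the IkB proteins for destruction and so frees the NF-kB subunits Rela, Rel and the product of Nfkb1, whereas the kinase NIK (Map3k14) acts through Nfkb2 and Relb. Several of the genes that NF-kB switches on encode its own brakes, and in marrow TNF is known to act on the growth and survival of progenitors.

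Falls were found mainly among ligand and receptor genes, and rises mainly among the other members. Of the 66 genes, 20 rose and 17 fell (30.3% and 25.8%), and 29 did not pass the test. Together these were 56.1% of the 66 genes, against 33.2% of all 18192 genes, of which 16.0% rose and 17.2% fell (limma, Benjamini-Hochberg adjusted p under 0.05). Of the 32 ligand and receptor genes, 5 rose and 16 fell, with a median log2 difference of -0.57, EGFP-positive minus EGFP-negative. Of the other 33 protein-coding genes, nearly all for proteins inside the cell, 14 rose and 1 fell, with a median of 0.24, beside a median of 0.02 over all genes. Among these 14 rises, those of Birc3, Ikbkb, Nfkbiz, Rela, Tnfaip1 and Tnfaip8 were lost under at least 1 alternative processing. Of the ligands and receptors, the falls of Tnfrsf8 and Tnfsf4 and the rise of Tnfrsf10b were lost in that way. Changes of at least 2-fold were 5 rises and 12 falls, and all 12 of these falls were ligands or receptors, where 5.95% of all genes rose and 6.24% fell that far. Values of the 2 groups did not overlap for 39 of the 66 genes, against 48.2% of all genes. The 2 non-overlapping genes that did not pass the test were Nfkbia and Tnfaip3. In 7 genes both group means lay under 3.61, the highest value of 27 control probe sets for bacterial poly-A transcripts and used here as the ceiling of background (Lta, Fasl, Tnfsf8, Tnfrsf11a, Tnfrsf11b, Tnfrsf17 and Tnfrsf19). Among genes with a group mean above it, 33.9% of 59 members rose and 28.8% fell, against 20.7% and 22.6% of 13428 genes.

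**Figure D1:**
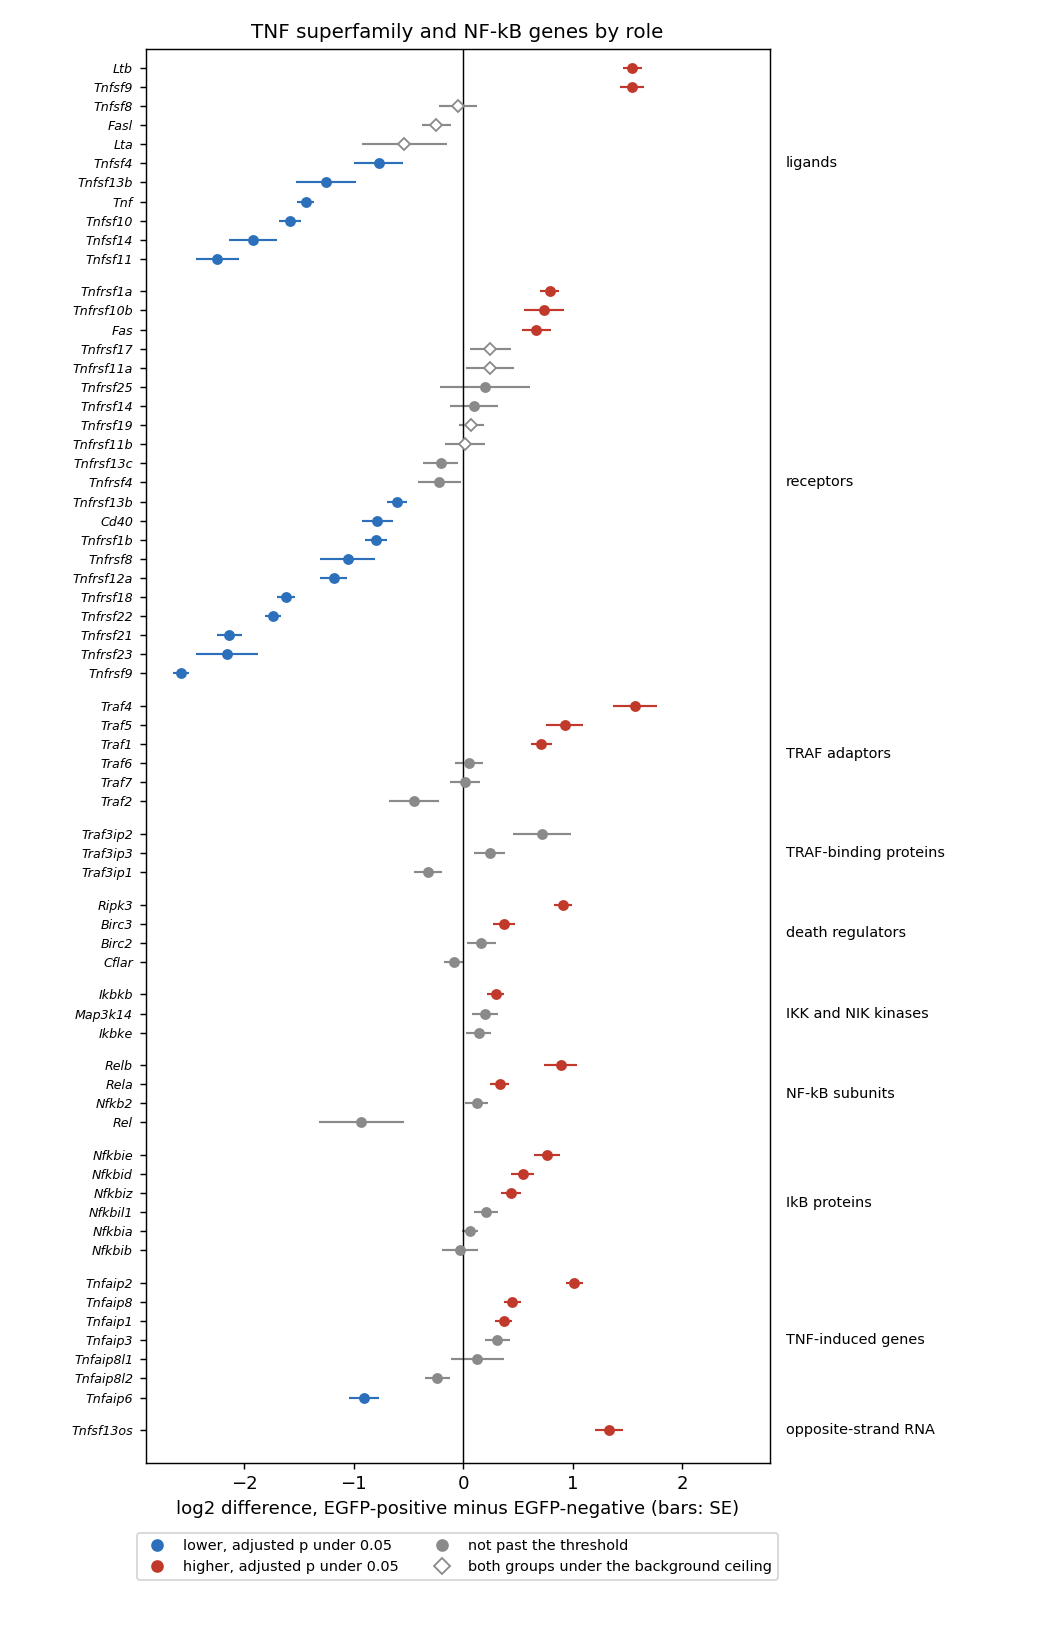
Log2 difference (EGFP-positive minus EGFP-negative, horizontal axis) of the 66 measured genes in rows grouped by role, with bars for the SE of the limma fit, red for higher, blue for lower, grey for genes that did not pass and open diamonds for those under the ceiling in both groups. Ligands and receptors reach from -2.57 to 1.55 and hold 16 of the 17 falls, and the remaining fall is Tnfaip6, which encodes a secreted protein.

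Other blood cell genes moved between the fractions as well. Neutrophil markers fell in 9 of 9 cases, and their mean log2 signal was 9.19 to 9.30 on EGFP-positive arrays and 11.68 to 11.83 on EGFP-negative arrays. Mast cell and basophil markers fell in 5 of 6 cases (7.53 to 7.77 on EGFP-positive and 9.72 to 9.81 on EGFP-negative arrays), and eosinophil markers in 4 of 4 (4.77 to 5.53 on EGFP-positive and 7.85 to 8.07 on EGFP-negative arrays). Monocyte and macrophage markers fell in 6 of 7 cases and rose in 1, and the mean over the 7 was 6.97 to 7.04 on EGFP-positive and 8.62 to 8.69 on EGFP-negative arrays. Erythroid markers rose in 3 of 4 and fell in 1 (6.77 to 6.91 on EGFP-positive and 4.86 to 5.19 on EGFP-negative arrays). These 4 were uneven: Slc4a1, under the ceiling on the EGFP-negative arrays, differed by 6.25, Epor by 1.71, Klf1 by 1.33 and Alas2 by -1.86. Megakaryocyte markers rose in 3 of 5 (8.66 to 8.70 on EGFP-positive and 7.50 to 7.57 on EGFP-negative arrays). Of 5 dendritic cell markers 2 fell (Itgax and Flt3), while Cd209a and Xcr1 stayed below the ceiling in either group. Flt3 is counted again among the progenitor markers below. Of 4 B cell markers 1 rose, 1 did not pass and 2 stayed below the ceiling in either group. Of these 2, Ms4a1 passed as lower (-0.85), although a difference under the ceiling cannot be read. Of 6 T and NK cell markers 1 passed (Cd3e, lower), while both group means of another 2 stayed below the ceiling. Of 5 markers of progenitors and blood cells in general, 3 fell (Cd34, Kit and Flt3) and 0 rose, and their mean was 8.05 to 8.41 on EGFP-positive and 9.26 to 9.33 on EGFP-negative arrays. Kit and Cd34 averaged 6.60 and 7.74 in EGFP-positive and 7.58 and 10.48 in EGFP-negative cells. For Actb the signal of the 3' end exceeded that of the 5' end by 1.00 ± 0.03 in EGFP-positive and 0.80 ± 0.05 in EGFP-negative arrays (SD, n = 3 each), and for Gapdh by 1.06 ± 0.04 in EGFP-positive and 0.82 ± 0.02 in EGFP-negative arrays. The part of these shifts in the results below was not tested. Each array measured a whole sorted fraction, in which fewer cells of a type and less RNA per cell cannot be told apart.

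Most ligand genes with a measurable signal were lower in EGFP-positive cells: of 11 ligands, 6 fell, 2 rose and 3 lay under the ceiling. Tnfsf11, the ligand (RANKL) that drives osteoclast formation, had 8.06, 7.35 and 7.42 on the EGFP-positive arrays, against 9.84, 9.82 and 9.90 on the EGFP-negative arrays. Its lowest EGFP-negative array stood above its highest EGFP-positive array, and the log2 difference was -2.25 (SE 0.20, 4.75-fold lower, adjusted p = 0.000387). A second, dimmer probe set of Tnfsf11 differed by -0.97, and the mean of both by -1.61. Tnfsf14, which encodes LIGHT, a ligand of the lymphotoxin beta receptor, had 7.32, 6.95 and 6.43 in EGFP-positive and 8.83, 8.87 and 8.74 in EGFP-negative cells. Tnfsf10, the gene of the death ligand TRAIL, had 6.75, 6.71 and 6.80 on the EGFP-positive arrays, against 8.16, 8.36 and 8.47 on the EGFP-negative arrays. The groups of both genes were apart, with differences of -1.92 (adjusted p = 0.00117) and -1.58 (adjusted p = 0.000136). One further probe set of Tnfsf10 also fell, by 1.53, while the other was nearly equal in both groups and did not pass. Tnf itself, the inflammatory cytokine that names the family, read 5.54, 5.46 and 5.48 in EGFP-positive and 6.98, 6.89 and 6.93 in EGFP-negative cells. Its arrays lay close together within each group, and it was 2.71-fold lower in EGFP-positive cells (-1.44, SE 0.08, adjusted p = 7.1e-05). Tnfsf13b, the B cell survival factor BAFF, was dim on every array (4.40, 3.85 and 4.42 in EGFP-positive and 5.25, 5.17 and 6.02 in EGFP-negative cells) and fell by 1.25 on the log2 scale, or by 0.55 in the mean of its probe sets. Tnfsf4, the ligand of the costimulatory receptor Tnfrsf4, passed as lower (-0.77, adjusted p = 0.0408), with 1 EGFP-positive array under the ceiling. Only with EGFP-positive replicate 2 left out did the call hold among the 6 fits that omit 1 array, and it reached an adjusted p of 0.125 without EGFP-negative replicate 3.

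The 2 ligands that rose did so by nearly the same amount. Ltb, which encodes lymphotoxin beta, the membrane anchor of lymphotoxin, had 10.08, 10.08 and 10.10 on the EGFP-positive arrays, against 8.59, 8.41 and 8.61 on the EGFP-negative arrays, a 2.92-fold rise (1.55, SE 0.09, adjusted p = 9.2e-05). The group means of its partner chain Lta lay under the ceiling, and the receptor gene Ltbr averaged 8.37 ± 0.10 in EGFP-positive and 8.06 ± 0.15 in EGFP-negative cells, which did not pass (adjusted p = 0.0818). Ltb, Tnf, Lta and Nfkbil1 follow each other directly in the RefSeq gene order of the mouse assembly GRCm38.p6, and of these neighbours Ltb rose, Tnf fell and the other two did not pass. Tnfsf9, the ligand of the costimulatory receptor Tnfrsf9, had 7.87, 7.95 and 8.15 in EGFP-positive and 6.32, 6.54 and 6.48 in EGFP-negative cells. Every EGFP-positive array exceeded every EGFP-negative one (2.92-fold, 1.54, adjusted p = 0.000188). Tnfsf13os, a non-coding RNA opposite Tnfsf13 that the symbol rule brought in, rose as well, with 6.82, 7.16 and 6.75 on the EGFP-positive arrays, against 5.65, 5.58 and 5.50 on the EGFP-negative arrays (1.34, adjusted p = 0.000546). Its second probe set lay under the ceiling in both groups, and the mean of both rose by 0.57.

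Receptor genes fell in 10 of 21 cases and rose in 3. Tnfrsf9, a costimulatory receptor of activated lymphocytes that mast cells and other myeloid cells can also carry, had 9.55, 9.59 and 9.55 in EGFP-positive and 12.14, 12.14 and 12.13 in EGFP-negative cells. The spread within each group was far smaller than the gap, and the gene was 5.95-fold lower in EGFP-positive cells (-2.57, SE 0.07, adjusted p = 1.5e-05), 21st of 18192 genes by p. A second probe set differed by -3.56, and the third lay under the ceiling in both groups. Tnfrsf21, a receptor with a death domain, had 8.37, 8.63 and 8.76 on the EGFP-positive arrays, against 10.70, 10.74 and 10.73 on the EGFP-negative arrays, a difference of -2.13 (adjusted p = 7.9e-05). These values come from a probe set whose name marks it as one that may bind several transcripts, and a dimmer probe set of Tnfrsf21 without that mark in its name differed by -1.35. Tnfrsf18, the glucocorticoid-induced receptor GITR, had 7.75, 7.93 and 7.90 in EGFP-positive and 9.51, 9.46 and 9.46 in EGFP-negative cells, a difference of -1.62 (adjusted p = 6.7e-05). In RefSeq gene order Tnfrsf18 is the neighbour of Tnfrsf4, which did not pass (-0.22, with overlapping groups).

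Tnfrsf22 and Tnfrsf23, neighbouring mouse genes for TRAIL receptors that lack a death domain, were both lower. Tnfrsf22 read 7.3225, 7.2927 and 7.3036 on the EGFP-positive arrays, against 9.0478, 9.0004 and 9.0771 on the EGFP-negative arrays (-1.74, adjusted p = 3.7e-05), and each of its 3 probe sets passed as lower, of which the dimmest differed by -1.10. Tnfrsf23 was dimmer, with 4.23, 3.51 and 4.64 in EGFP-positive and 6.16, 6.25 and 6.44 in EGFP-negative cells. As 1 EGFP-positive array lay under the ceiling, it was at least 4.35-fold lower (adjusted p = 0.00191). The 2 genes are close relatives, so it is uncertain how far their probe sets read them apart. Tnfrsf10b, the TRAIL receptor that does signal death in the mouse, went the other way, with 6.94, 7.09 and 7.17 on the EGFP-positive arrays, against 6.14, 6.11 and 6.73 on the EGFP-negative arrays (0.74, adjusted p = 0.0239). Its rise was not called without EGFP-positive replicate 2 or 3 or EGFP-negative replicate 1 or 2, with an adjusted p of up to 0.0809 without EGFP-negative replicate 1. A second probe set of Tnfrsf10b, with a name that marks possible binding to several transcripts, rose by 0.96 and passed. The mean of both rose by 0.85 (adjusted p = 0.00307).

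The TNF receptors themselves moved in opposite directions. Tnfrsf1a, the widely expressed death-domain receptor of TNF, read 9.08, 9.14 and 9.11 in EGFP-positive and 8.23, 8.34 and 8.40 in EGFP-negative cells. Tnfrsf1b, the TNF receptor of blood and endothelial cells that lacks a death domain, read 9.65, 9.45 and 9.38 on the EGFP-positive arrays, against 10.34, 10.32 and 10.22 on the EGFP-negative arrays. Neither gene had overlapping groups, and the differences were 0.79 (SE 0.08, adjusted p = 0.000792) for Tnfrsf1a and -0.80 (SE 0.10, adjusted p = 0.00171) for Tnfrsf1b. Fas, a death receptor, rose 1.59-fold, with 8.79, 8.84 and 8.49 in EGFP-positive and 8.15, 8.10 and 7.86 in EGFP-negative cells (adjusted p = 0.0108). Fasl, its ligand, was under the ceiling on all 6 arrays. Cd40, through which T cells activate B cells and myeloid cells, had 6.58, 6.19 and 6.52 on the EGFP-positive arrays, against 7.12, 7.11 and 7.40 on the EGFP-negative arrays (-0.78, adjusted p = 0.00751). Tnfrsf12a, the receptor of the cytokine TWEAK, had 6.18, 6.32 and 6.16 in EGFP-positive and 7.26, 7.63 and 7.32 in EGFP-negative cells (-1.18, adjusted p = 0.000746). These values left a gap between the groups in both genes. Tnfrsf8, a receptor of activated lymphocytes, was dim, with 4.40, 4.44 and 3.64 on the EGFP-positive arrays, against 4.99, 5.16 and 5.50 on the EGFP-negative arrays (-1.05, adjusted p = 0.0210). That call was lost without EGFP-negative replicate 2 or 3, with an adjusted p of up to 0.0734 without EGFP-negative replicate 3. Tnfrsf13b, a receptor of BAFF, also fell (-0.60, adjusted p = 0.00317). Tnfrsf13c, Tnfrsf14 and Tnfrsf25 had group means above the ceiling and did not pass, with differences of -0.21, 0.10 and 0.20.

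**Figure D2:**
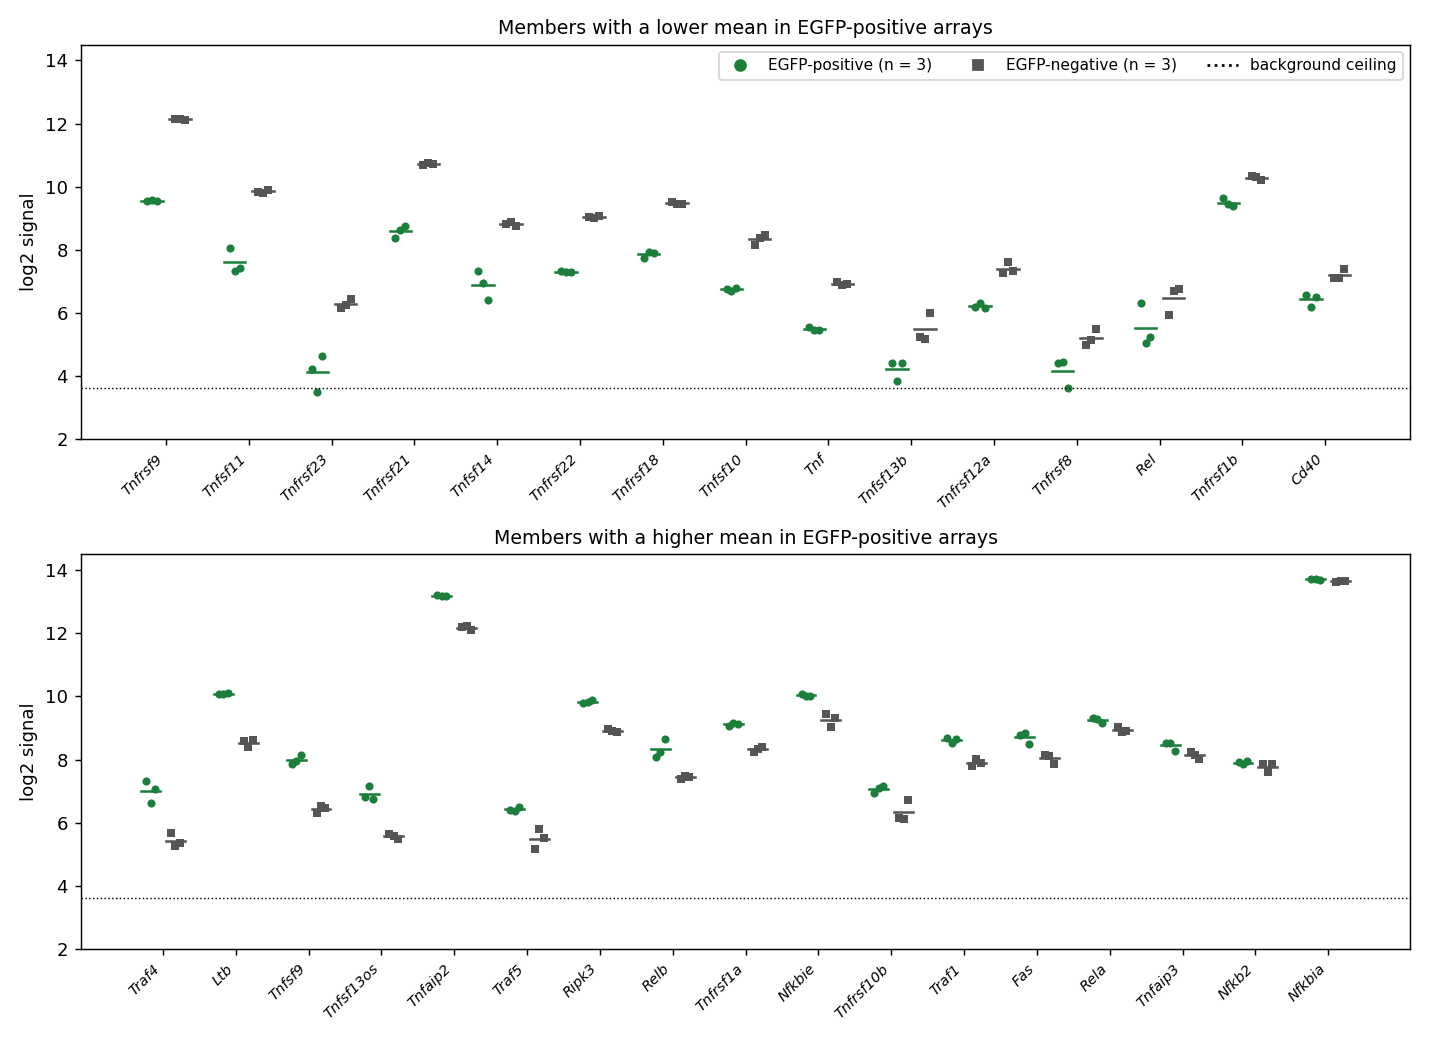
Log2 signal (vertical axis) of 32 genes on each of the 3 EGFP-positive (green circles) and 3 EGFP-negative arrays (grey squares), with bars for the group means and a dotted line at the background ceiling of 3.61. The upper panel holds genes with a lower mean in EGFP-positive arrays and the lower panel those with a higher one, and the groups of Rel and Nfkb2 overlap.

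The genes of a ligand and of its receptor moved together in some pairs and apart in others. In a chosen list of 15 ligand and receptor pairs with both genes measured, both genes passed in 7. Of these 7 pairs, 4 had both lower, 3 had opposite directions and 0 had both higher. The list does not hold every known pair, so the counts apply to it alone. The opposite pairs were Tnfsf9 (1.54) with Tnfrsf9 (-2.57), Tnf (-1.44) with Tnfrsf1a (0.79), and Tnfsf10 (-1.58) with Tnfrsf10b (0.74). Both genes fell for Tnf with Tnfrsf1b, for Tnfsf10 with Tnfrsf22 and with Tnfrsf23, and for Tnfsf13b with Tnfrsf13b. The pairs share genes and so are not independent. Tnfsf11, although lower, had receptor genes under the ceiling in both groups, namely Tnfrsf11a, which encodes RANK, and Tnfrsf11b, which encodes the soluble decoy osteoprotegerin.

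**Figure D3:**
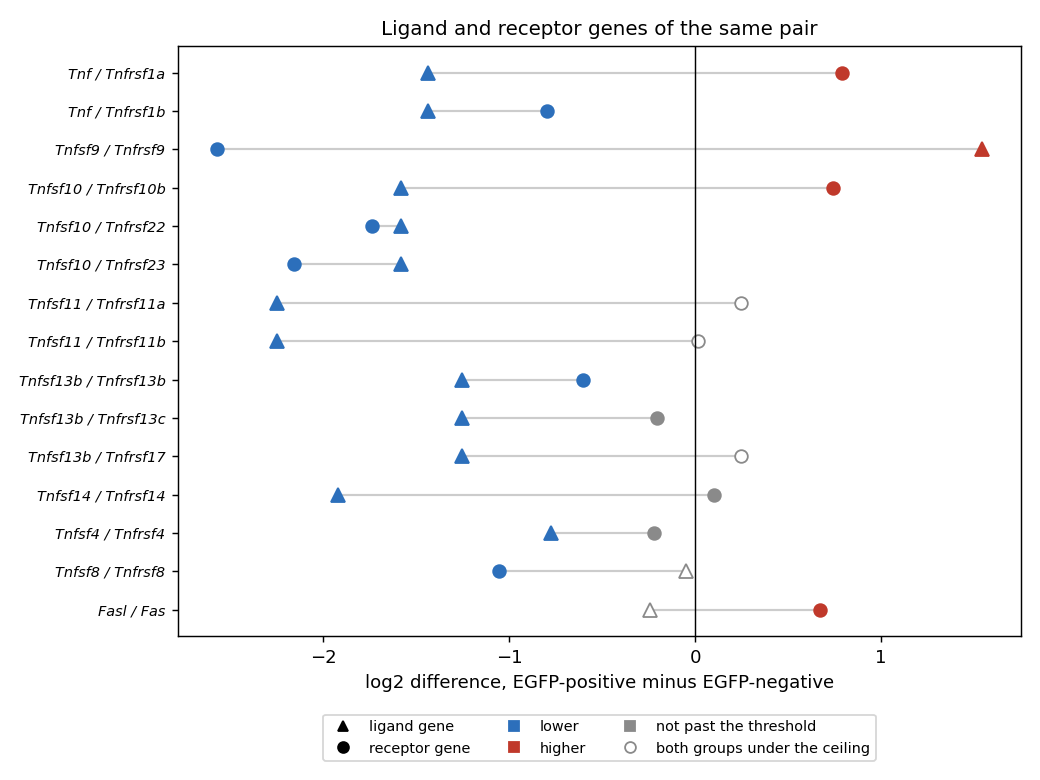
Log2 differences (EGFP-positive minus EGFP-negative, horizontal axis) of the ligand gene (triangle) and the receptor gene (circle) in 15 pairs, red for higher, blue for lower, grey for not past the threshold and open where both groups lay under the ceiling. A line joins the genes of a pair, and Tnfsf9 with Tnfrsf9 lies farthest apart (1.54 and -2.57).

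Adaptors and regulators next to the receptors rose or did not pass. Of 6 TRAF genes, 3 rose: Traf4, an adaptor also known from epithelia and the nervous system, had 7.31, 6.63 and 7.05 in EGFP-positive and 5.68, 5.26 and 5.35 in EGFP-negative cells (2.97-fold, 1.57, SE 0.20, adjusted p = 0.00174). Traf5, which links receptors to NF-kB, had 6.39, 6.37 and 6.51 on the EGFP-positive arrays, against 5.16, 5.81 and 5.51 on the EGFP-negative arrays (0.93, adjusted p = 0.00756). Traf1, itself a known NF-kB target, had 8.67, 8.51 and 8.65 in EGFP-positive and 7.79, 8.01 and 7.90 in EGFP-negative cells (0.71, adjusted p = 0.00216). In each of these genes the lowest EGFP-positive array exceeded the highest EGFP-negative array. Traf2, Traf6 and Traf7 differed by -0.45, 0.05 and 0.02 with overlapping groups. The genes of the TRAF-binding proteins Traf3ip1, Traf3ip2 and Traf3ip3 did not pass either (-0.32, 0.72 and 0.24).

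Ripk3, the kinase of necroptosis, rose 1.88-fold, with 9.79, 9.82 and 9.88 on the EGFP-positive arrays, against 8.98, 8.90 and 8.87 on the EGFP-negative arrays (SE 0.08 on a difference of 0.91, adjusted p = 0.000377). Its substrate Mlkl averaged 9.36 ± 0.10 in EGFP-positive and 9.43 ± 0.05 in EGFP-negative cells and did not pass (adjusted p = 0.613). Birc3, a ubiquitin ligase at the receptor complex, passed as higher (0.37, adjusted p = 0.0332). The call ended in 5 of the 6 fits that omit 1 array (it held without EGFP-positive replicate 2), with an adjusted p of 0.103 without EGFP-negative replicate 3. Birc2, its neighbour and relative, and Cflar, which restrains caspase-8, differed by 0.17 and -0.09 and did not pass. Of the kinases, Ikbkb, the catalytic subunit that phosphorylates IkB, was bright, with 11.66, 11.63 and 11.55 in EGFP-positive and 11.38, 11.29 and 11.28 in EGFP-negative cells (0.30, adjusted p = 0.0316). Its call also ended in 5 of these 6 fits (it held without EGFP-positive replicate 3), up to an adjusted p of 0.107 without EGFP-negative replicate 2. The most variable probe set of Ikbkb differed by 0.06. Among its other dimmer probe sets, 1 rose by 0.44 and passed (adjusted p = 0.042 over all probe sets). The remaining ones differed by 0.42 and -0.04 and did not pass. The chosen, brightest probe set of Ikbkb did not pass when adjusted over all probe sets (adjusted p = 0.0597). Ikbke and Map3k14 differed by 0.14 and 0.20, with overlapping groups.

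Of 4 measured NF-kB subunit genes, 2 rose and 0 fell. Relb, the partner of Nfkb2 in the NIK-dependent branch, had 8.10, 8.26 and 8.65 on the EGFP-positive arrays, against 7.38, 7.49 and 7.46 on the EGFP-negative arrays, a 1.85-fold rise (0.89, SE 0.15, adjusted p = 0.00576). Rela, the main activating subunit, had 9.32, 9.29 and 9.17 in EGFP-positive and 9.02, 8.87 and 8.89 in EGFP-negative cells, a smaller difference (0.34, adjusted p = 0.0289). Omitting any single array other than EGFP-positive replicate 3 ended the call, up to an adjusted p of 0.103 without EGFP-negative replicate 2. Nfkb2 had 7.91, 7.86 and 7.94 on the EGFP-positive arrays, against 7.86, 7.60 and 7.88 on the EGFP-negative arrays and did not pass (0.12, adjusted p = 0.424). Rel, the subunit of lymphocytes and myeloid cells, varied more than the others, with 6.32, 5.05 and 5.24 in EGFP-positive and 5.94, 6.70 and 6.76 in EGFP-negative cells. EGFP-positive replicate 1 lay within the EGFP-negative range, and the difference of -0.93 did not pass (adjusted p = 0.120). Without that array it was -1.32 and passed (adjusted p = 0.0200).

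Of 6 genes for IkB proteins, 3 rose and 0 fell. Nfkbie, which holds NF-kB in the cytoplasm, had 10.08, 10.03 and 10.00 on the EGFP-positive arrays, against 9.43, 9.04 and 9.32 on the EGFP-negative arrays (1.7-fold, 0.77, adjusted p = 0.00369), and its second probe set rose by 0.69. Nfkbid, an atypical nuclear IkB protein, rose by 0.54 (adjusted p = 0.0104). Nfkbiz, another nuclear IkB protein, rose by 0.44 (adjusted p = 0.0126), but its other probe sets differed by 0.10 and -0.27 and did not pass, and without EGFP-negative replicate 1 the adjusted p was 0.0514. Nfkbia, the classical inhibitor and a fast target of NF-kB, was among the brightest of these genes and nearly equal in both groups, with 13.71, 13.72 and 13.69 in EGFP-positive and 13.63, 13.65 and 13.65 in EGFP-negative cells (0.06, SE 0.07, adjusted p = 0.559). None of its 5 probe sets passed, and they ranged from -0.22 to 0.06. Nfkbib and Nfkbil1 differed by -0.03 and 0.21 and did not pass.

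The genes named for their induction by TNF moved both ways. Tnfaip2, which promotes membrane protrusions, was bright and rose on all 3 of its probe sets, the brightest with 13.23, 13.17 and 13.19 on the EGFP-positive arrays, against 12.19, 12.24 and 12.11 on the EGFP-negative arrays (1.01, SE 0.08, adjusted p = 0.000247) and another by 1.64. Tnfaip8 and Tnfaip1 rose by 0.45 (adjusted p = 0.00584) and 0.37 (adjusted p = 0.0141), and the call of Tnfaip1 was lost without EGFP-negative replicate 1 or 2 (adjusted p of 0.0545 and 0.0603). Tnfaip3, which encodes A20, a brake on NF-kB that edits ubiquitin chains, had 8.54, 8.52 and 8.28 in EGFP-positive and 8.24, 8.15 and 8.01 in EGFP-negative cells. Its groups did not overlap, but the difference of 0.31 did not pass (adjusted p = 0.0805), although it did without EGFP-positive replicate 3 (adjusted p = 0.0402). Tnfaip6, a hyaluronan-binding secreted protein, fell by 0.90 (adjusted p = 0.00354). Tnfaip8l1 and Tnfaip8l2 differed by 0.13 and -0.23 with overlapping groups.

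The promoters of the genes were read for the kappaB consensus, the DNA motif that NF-kB binds, on both strands of RefSeq windows from 250 bases before to 50 bases after each start site (GRCm38.p6). No other motif was searched. Of 54 measured members with such a window 10 held a match in at least 1 of their windows (18.5%), against 6.07% of 14451 genes of the array. By direction, it was found in 3 of 13 members that rose (23.1%), 2 of 14 that fell (14.3%) and 5 of 27 that did not pass (18.5%). Over all genes it was found in 8.24% of those that rose, 6.32% of those that fell and 5.47% of the others. A match of letters is a description and does not show binding. The stretches that follow show matches in the windows of the 5 members that changed (Ltb, Nfkbid, Nfkbie, Tnfrsf8 and Tnfrsf9) and of Nfkbia, as a target that did not pass. Each is given 5′ to 3′ on the strand of the gene with the matches in capitals, and overlapping matches run together as 1 longer stretch.
Ltb, chr17:35194400-35194449, plus strand: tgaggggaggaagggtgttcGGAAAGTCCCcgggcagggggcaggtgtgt
Nfkbid, chr7:30422160-30422254, plus strand: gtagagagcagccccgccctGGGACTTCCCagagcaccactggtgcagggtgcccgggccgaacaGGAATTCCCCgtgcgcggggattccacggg
Nfkbie, chr17:45555574-45555623, plus strand: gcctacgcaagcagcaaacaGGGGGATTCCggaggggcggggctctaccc
Tnfrsf8, chr4:145315303-145315352, minus strand: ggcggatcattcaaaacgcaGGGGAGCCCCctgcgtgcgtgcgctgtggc
Tnfrsf9, chr4:150927936-150927986, plus strand: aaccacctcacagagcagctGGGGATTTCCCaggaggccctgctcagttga
Nfkbia, chr12:55492648-55492696, minus strand: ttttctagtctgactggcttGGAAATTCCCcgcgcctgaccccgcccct
The match lay 87 bases before the start in Ltb, which rose, and 42 and 43 bases before it (overlapping matches) in Tnfrsf9, which fell. In Nfkbia it lay 29 bases before the start.

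Genes outside the symbol rule that act in the same pathway were read from lists. These lists were chosen with earlier results of these data known, so their shares are not independent of those results. Of 29 measured genes that carry the signal from receptor to IKK, 6 rose and 3 fell (20.7% and 10.3%), with a median of -0.03. All 29 had a group mean above the ceiling, where 20.7% of 13428 genes rose and 22.6% fell. The share that rose in this list was thus no larger than among such genes in general, and the share that fell was smaller. The smallest p among the rises had Rnf31, which encodes the linear ubiquitin ligase HOIP (0.72, adjusted p = 0.00215), Rnf11 (0.63) and the kinase gene Tbk1 (0.49). The falls were Otulin, the enzyme that removes linear ubiquitin chains (-0.64, adjusted p = 0.00156), the paracaspase gene Malt1 (-0.92) and the kinase gene Map3k8 (-0.92). Among 9 family members under other symbols, Eda2r, a receptor of ectodysplasin, rose (0.94, adjusted p = 0.000445), and Cd27 (-0.70) and Relt (-0.52), both receptor genes, fell. These rises and falls were 11.1% and 22.2% of the 9, against 16.0% and 17.2% of all genes.

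Of 34 textbook NF-kB target genes, 7 rose and 17 fell (20.6% and 50.0%) and 10 did not pass, with a median of -0.37. Over all genes 16.0% rose and 17.2% fell, and 20.7% and 22.6% of those with a group mean above the ceiling. The target list was also chosen with earlier results of these data known, so this comparison is descriptive. The falls with the smallest p were the chemokine genes Ccl3, which averaged 6.91 ± 0.14 in EGFP-positive and 11.03 ± 0.03 in EGFP-negative cells (-4.12), Ccl4 (-3.46) and Ccl2 (-2.19), with adjusted p from 1.5e-05 to 3.6e-05. The rises with the smallest p were Mmp9, a gelatinase gene (6.09), Bcl3, an atypical IkB gene (1.48, adjusted p = 9.4e-05), and Irf1, an interferon regulatory factor gene (1.28, adjusted p = 0.00105). Myeloid markers were lower in the same arrays, by the values given above, and their part in these falls was not tested.

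**Figure D4:**
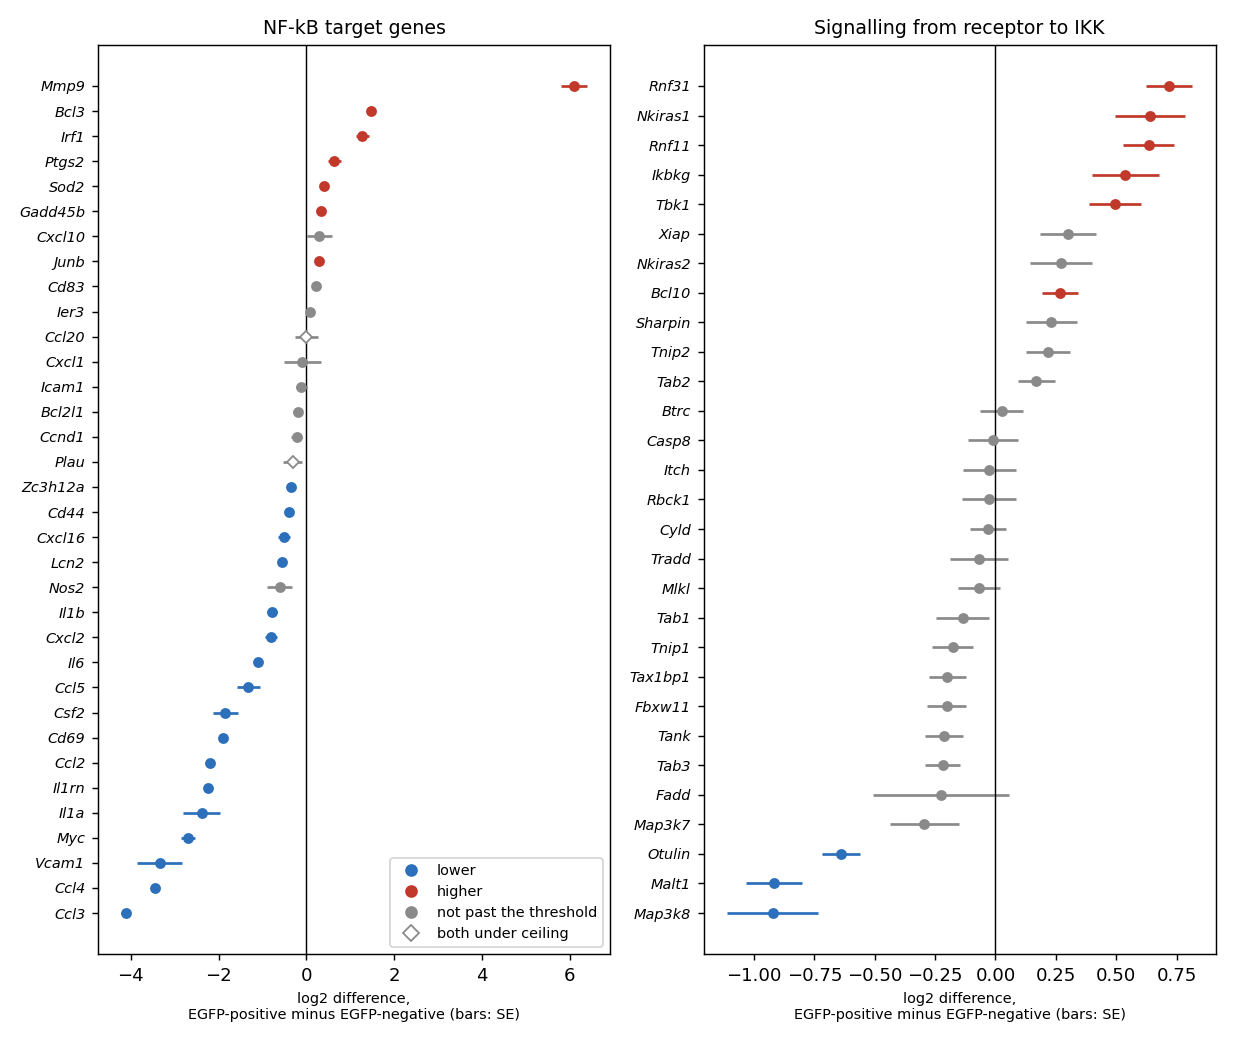
Log2 differences (EGFP-positive minus EGFP-negative, horizontal axes, which differ in scale) of 34 NF-kB target genes (left) and 29 genes that signal from receptor to IKK (right), with bars for the SE, red for higher, blue for lower and grey for not past the threshold. Ccl3 is lowest at -4.12 and Mmp9 highest at 6.09 among the targets, while the signalling genes lie between -0.92 and 0.72.

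Where a gene had several probe sets they gave the same direction or no call. Of the 66 genes, 33 had more than 1 probe set, and in 0 of these did probe sets pass in opposite directions. Of the 22 called genes among them, 13 had more than 1 probe set past the threshold the same way, adjusted over all probe sets. With that adjustment the chosen probe sets of Birc3, Ikbkb, Rela and Tnfsf4 did not pass (adjusted p of 0.0534, 0.0597, 0.0515 and 0.0508). The spread between arrays was larger among EGFP-positive than EGFP-negative arrays in 45 of the 66 genes. The share over all genes was not counted. Whole arrays also correlated less closely among EGFP-positive (Pearson r from 0.9886 to 0.9893) than among EGFP-negative samples (0.9946 to 0.9952). The larger spread therefore cannot be read as particular to these genes.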

How the data were processed

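RNA of 6 sorted samples was hybridised to 1 Affymetrix 3' expression array each. The authors deposited log2 values made with RMA, per the submitters' processing notes, with version and settings not given in the sources used here. RMA evens out the distributions of the arrays, so a change shared by most genes may not show. The medians of the deposited values still differed slightly, at 5.11 to 5.12 on EGFP-positive and 5.14 on EGFP-negative arrays. Each gene was read from 1 probe set annotated to it alone, chosen as the brightest on average across all 6 arrays, giving 18192 genes. Groups were compared by limma (version 3.58.1, R 4.3.3) using lmFit followed by eBayes, with Benjamini-Hochberg adjustment over all genes and a threshold of 0.05. A fold is 2 to the power of the log2 difference, and if any array of the dimmer group read below the background ceiling it is a lower bound. The number of arrays limits the precision. Data were simulated for this comparison as 20 sets of 18192 genes, of which 200 were changed. The fit recovered 15.5%, 58.3%, 90.3% and 94.6% of genes changed by 0.5, 1, 2 and 2.5 log2 units, with 4.68% false calls. On the real arrays 33.2% of the 18192 genes passed, a far larger share, so the Benjamini-Hochberg adjustment was stricter in the simulation. The recovered shares therefore cannot be read as those of the real comparison.

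The members and gene lists were chosen with earlier results of these data known. Genes shown array by array were the 12 largest rises and 12 largest falls past the threshold, the NF-kB subunits, and Nfkbia, Tnfaip3, Tnf, Fas, Cd40, Tnfrsf1a and Tnfrsf1b, and from each other list up to 3 rises and 3 falls with the smallest p were named. Ikbkb, Ltbr and Mlkl were named outside this rule after their values were seen. Whether equal replicate numbers pair the samples is not known, and the main fit did not pair them. The correlation of deviations from the group means between same-numbered samples was 0.01, -0.01 and 0.00. These values showed no shared deviation, but they cannot exclude a common culture. Alternatives covered normalization, filters, limma settings, probe set choice, a replicate block and each array left out.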

Additional observations from a re-analysis of the deposited data

How the results depend on the processing

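Of the 37 genes past the threshold, 28 passed with the same sign under every alternative that gave them a value (16 or 17 of 17), and 9 lost the call under at least 1: Birc3, Ikbkb, Nfkbiz, Rela, Tnfaip1, Tnfaip8, Tnfrsf8, Tnfrsf10b and Tnfsf4. Leaving out 1 array gave 14 to 20 rises and 15 to 19 falls among the 66 genes, and 2180 to 2705 rises and 2252 to 2959 falls among all genes. When only brighter genes were tested, 11 of the 66 fell, since dim genes were not tested there. With the replicate number as a block, 16 rose and 15 fell (2361 and 2539 over all genes). The block ended the calls of Birc3, Ikbkb, Rela, Tnfaip1, Tnfrsf8 and Tnfsf4. Whether the numbers pair samples is not known. Nfkbia, which did not pass, turned to -0.22 with its most variable probe set and -0.022 when its probe sets were averaged, and it passed with an intensity trend in eBayes (adjusted p = 0.0290). Tnfaip8 lost its call with the most variable probe set (adjusted p = 0.171) and Nfkbiz with the mean of its probe sets (0.09, adjusted p = 0.460). Further quantile normalization and a shift to equal medians each left 20 rises and 17 falls. Under the background ceiling of 3.61 a difference could not be read, which touches 7 of the 66 genes in both groups.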
